A study of Drosophila melanogaster with 12 samples.

Results

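The genes described here are the 5378 of 14977 (35.9%) whose FPKM, the read count of a gene scaled to its length and to the depth of the library, was at least 5 in each of 4 libraries of *Drosophila melanogaster* embryos, the miCLIP and mRNA-seq libraries of timepoint T4 (6 to 12 h) and those of T3 (1.5 to 6 h). For each gene the enrichment R, the log2 of (miCLIP FPKM + 1) over (mRNA-seq FPKM + 1), was taken at T4 and at T3, and the enrichment difference is R at T4 minus R at T3. A difference of 1 is thus a 2-fold change of the ratio between the assays on this scale, which understates the change of genes with low values. The members closest to the limit, *CG8319* and *CG32109*, had a lowest FPKM of 5.0 and differences of -0.23 and -0.08, and the closest genes outside it, *Rad9* and *CG10646*, had a lowest FPKM of 4.99 and differences of 0.23 and -0.91.

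Each library was made from poly(A) RNA of whole embryos collected in mass, so a value is a mean over many embryos and all their tissues. The miCLIP libraries were precipitated with an Abcam antibody against m6A, and the mRNA-seq libraries were made from the same RNA samples without it. The embryos carried no mutation or treatment that set the groups apart. Their strain is given as Canton S in the growth protocol and in the study's methods, and as yw in the strain entry. The series has 6 timepoints with 1 library per assay and timepoint, so no difference below has a replicate check, none was tested, and each describes these 4 libraries. Fewer cells that use a gene and less of its RNA in each cell cannot be told apart in whole embryos.

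The m6A mark is a methyl group on adenosine within RNA, set on mRNA by a nuclear writer complex and read by YTH domain proteins. In miCLIP, RNA fragments are crosslinked to the antibody with ultraviolet light before they are precipitated, so the reads of a gene depend both on how much of its RNA is present and on how well that RNA is recovered. T3 runs over cellularization and gastrulation, when maternal RNA is cleared and zygotic transcription takes over, and T4 over the stages in which muscle, gut, nerve cord and epidermis begin to differentiate.

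The libraries fitted these stages. *nullo*, a cellularization gene, was listed at 0 in T4 miCLIP and T4 mRNA-seq, against 23.3 FPKM in T3 miCLIP and 21.8 in T3 mRNA-seq. *elav*, a gene of neurons, had 89.1 FPKM in T4 miCLIP and 49.7 in T4 mRNA-seq, against 32.0 in T3 miCLIP and 12.8 in T3 mRNA-seq. None of 20 ovary and eggshell genes reached 5 FPKM, and their summed FPKM was 4.74 in T4 miCLIP and 2.42 in T4 mRNA-seq, against 0.618 in T3 miCLIP and 2.18 in T3 mRNA-seq. The FPKM of a gene can take only whole multiples of the value of 1 read, and from these multiples 6772158 reads on genes were recovered for T4 miCLIP and 25486971 for T4 mRNA-seq, against 14484576 for T3 miCLIP and 24053302 for T3 mRNA-seq. The mitochondrial large ribosomal RNA (*lrRNA*) took 9.71% and 0.816% of them at T4, against 8.32% and 0.944% at T3. The median member had 409 reads in T4 miCLIP, the fewest of the 4 libraries.

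Most genes kept their ratio between the assays. The median enrichment difference was 0.08, with quartiles at -0.25 and 0.40, and R at T4 and R at T3 had a Spearman rho of 0.597 across the 5378 genes, which share library preparation and gene length. The difference was more than 2-fold higher at T4 for 215 genes, 4.0% of all members, and more than 2-fold lower for 128 genes, 2.38%. These shares are the background against which the gene groups below are read. They are not the same at every FPKM level and gene length, as given further on. Their balance depends on the scale of the libraries: there were 138 higher and 279 lower genes with all libraries scaled to the same FPKM sum, and 169 and 168 with the differences centred on their median. The extremes were *CG10035* at 2.96 and *CG13159* at -4.13. Each value moves with the scale of the 4 libraries, and scaling every library to the same FPKM sum lowered all differences by 0.19 and brought the median to -0.11, so directions of gene groups are given relative to the median of all members.

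**Figure D1:**
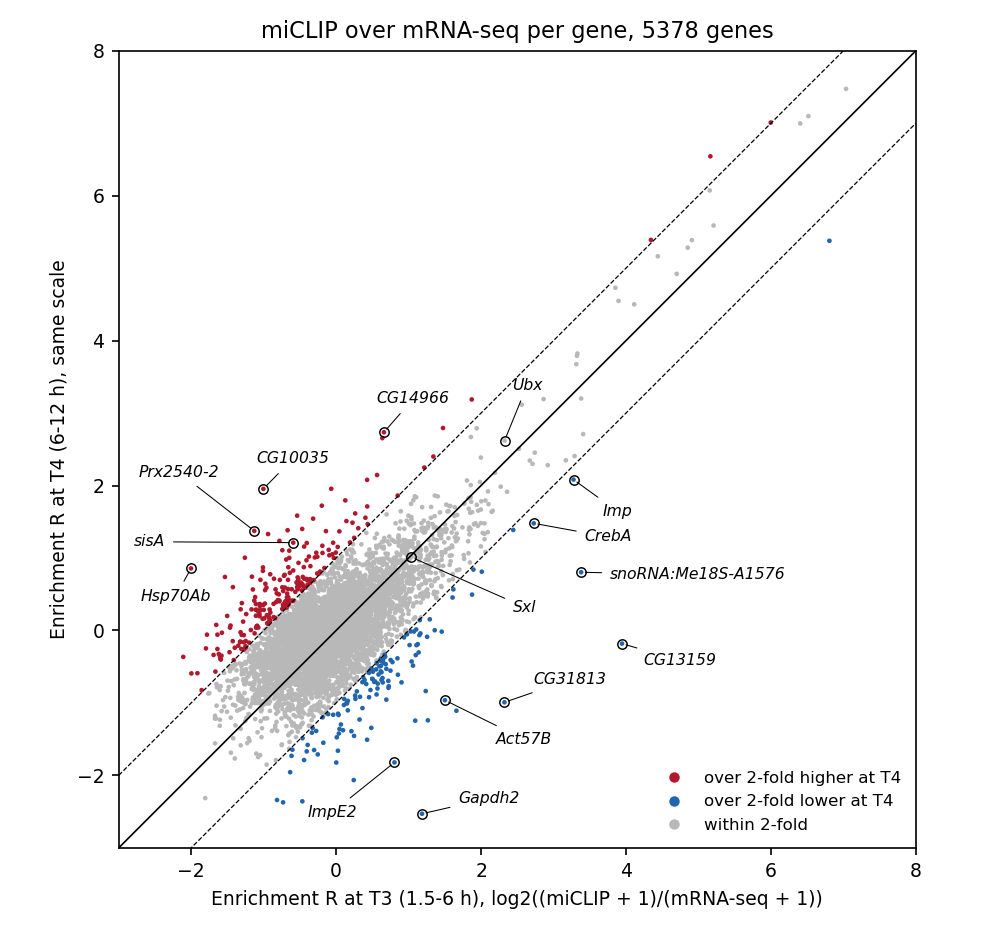
Enrichment R (log2) of each of the 5378 genes at T4 (vertical axis) against T3 (horizontal axis), with the solid line at no difference and the dashed lines at 2-fold. The 215 genes above the upper dashed line are red and the 128 below the lower one blue, and *Sxl* lies on the line of no difference while *Gapdh2* and *CG13159* lie far below it.

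The genes with the largest differences included stress and detoxification genes, small RNAs and genes known only by a number. *CG10035* had 123 FPKM in T4 miCLIP and 31.1 in T4 mRNA-seq, against 918 in T3 miCLIP and 1842 in T3 mRNA-seq. Both assays were lower at T4, and mRNA-seq was lower by more, which gives the difference of 2.96. *Hsp70Ab*, a heat-inducible chaperone gene, had 24.1 FPKM in T4 miCLIP and 12.9 in T4 mRNA-seq, against 16.3 in T3 miCLIP and 68.2 in T3 mRNA-seq, a difference of 2.86. *GstD9*, a glutathione S-transferase gene, had 15.2 and 7.10 FPKM in miCLIP and mRNA-seq at T4, against 10.04 and 25.4 at T3, a difference of 2.26. *Smvt*, a sodium-dependent vitamin transporter, had 17.7 and 6.15 FPKM at T4, against 14.8 and 24.1 at T3, a difference of 2.05. In these 3 genes the miCLIP value was higher at T4 and the mRNA-seq value lower.

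Another form of increase was seen in a family of peroxiredoxin genes, which encode enzymes that reduce peroxides. *Prx2540-2* had 173 FPKM in T4 miCLIP and 66.2 in T4 mRNA-seq, against 9.51 in T3 miCLIP and 22.0 in T3 mRNA-seq, so that both assays were higher at T4 and the difference was 2.50. Its relatives *CG12896* and *Prx2540-1* had differences of 2.02 and 1.47. *CG12896* had 175 FPKM in T4 miCLIP and 27.0 in T4 mRNA-seq, against 31.6 in T3 miCLIP and 19.95 in T3 mRNA-seq. These copies are close in sequence, as are the *Hsp70* copies, and the way in which reads were shared among copies is not given in the sources used here, so their separate values are uncertain.

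Of the 215 genes, 125 (58.1%) had a higher miCLIP value and a lower mRNA-seq value at T4, 48 were higher in both assays and 42 lower in both. Over all members, 737 of 5378 had a higher miCLIP and a lower mRNA-seq value, and the 215 genes were chosen on the difference of these values. The mRNA-seq value was lower by more than 2-fold for 75 of them, and the miCLIP value higher by more than 2-fold for 70. Over all members, 9.37% were more than 2-fold higher and 8.4% more than 2-fold lower in miCLIP, and 9.56% and 11.2% in mRNA-seq. Among the 215 genes, 157 crossed from a negative R at T3 to a positive R at T4, as did 894 of all members.

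A smaller group differed in miCLIP while mRNA-seq stayed within 0.25 on the log2 scale. *CG14182* had 25.4 FPKM in T4 miCLIP and 16.4 in T4 mRNA-seq, against 5.57 in T3 miCLIP and 16.6 in T3 mRNA-seq, a difference of 2.02. *CG7787* had 19.7 and 25.6 FPKM at T4, against 5.78 and 28.3 at T3, a difference of 1.74. *Mis12*, a kinetochore gene, had 18.7 and 13.3 FPKM at T4, against 6.8 and 15.9 at T3, a difference of 1.58. *Irk3*, an inwardly rectifying potassium channel gene, had 28.1 and 10.3 FPKM at T4, against 10.5 and 11.7 at T3, a difference of 1.51. In all 4 genes the mRNA-seq values of the timepoints were close to each other and the miCLIP value at T4 was the higher one. There were 35 such genes among the 215 (16.3%), whereas 28.0% of all members had mRNA-seq values within this range.

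The genes with the most negative differences included several that were far higher at T4 in both assays, and more so in mRNA-seq. *CG13159* had 931 FPKM in T4 miCLIP and 1056 in T4 mRNA-seq, against 110 in T3 miCLIP and 6.18 in T3 mRNA-seq, a difference of -4.13. Its T3 mRNA-seq value rests on 78 reads. *CG31813* had 413 and 823 FPKM in miCLIP and mRNA-seq at T4, against 31.4 and 5.48 at T3, a difference of -3.31. *CG9184* had 702 and 1661 FPKM at T4, against 26.8 and 10.5 at T3, a difference of -2.51. All 3 were above their mRNA-seq value in miCLIP at T3 and below it at T4.

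Among genes of known function *Act57B* followed the same form, and *ImpE2* and *Idh* were higher at T4 mainly in mRNA-seq. *Act57B*, which encodes an actin of the embryonic and larval muscles, had 331 FPKM in T4 miCLIP and 645 in T4 mRNA-seq, against 36.5 in T3 miCLIP and 12.3 in T3 mRNA-seq, a difference of -2.46. *ImpE2*, an ecdysone-inducible gene, had 94.9 and 338 FPKM at T4, against 64.0 and 36.2 at T3, a difference of -2.63. *Idh*, an isocitrate dehydrogenase gene, had 19.4 and 50.8 FPKM at T4, against 18.0 and 12.5 at T3, a difference of -1.83. For *Idh* nearly all of the difference lay in mRNA-seq. Among the 128 genes, 66 were more than 2-fold higher in mRNA-seq at T4, 58 (45.3%) were lower in miCLIP and higher in mRNA-seq, 50 were higher in both and 20 lower in both, and 95 crossed from a positive R at T3 to a negative R at T4. Over all members, 459 were lower in miCLIP and higher in mRNA-seq, and 627 crossed in this direction.

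**Figure D2:**
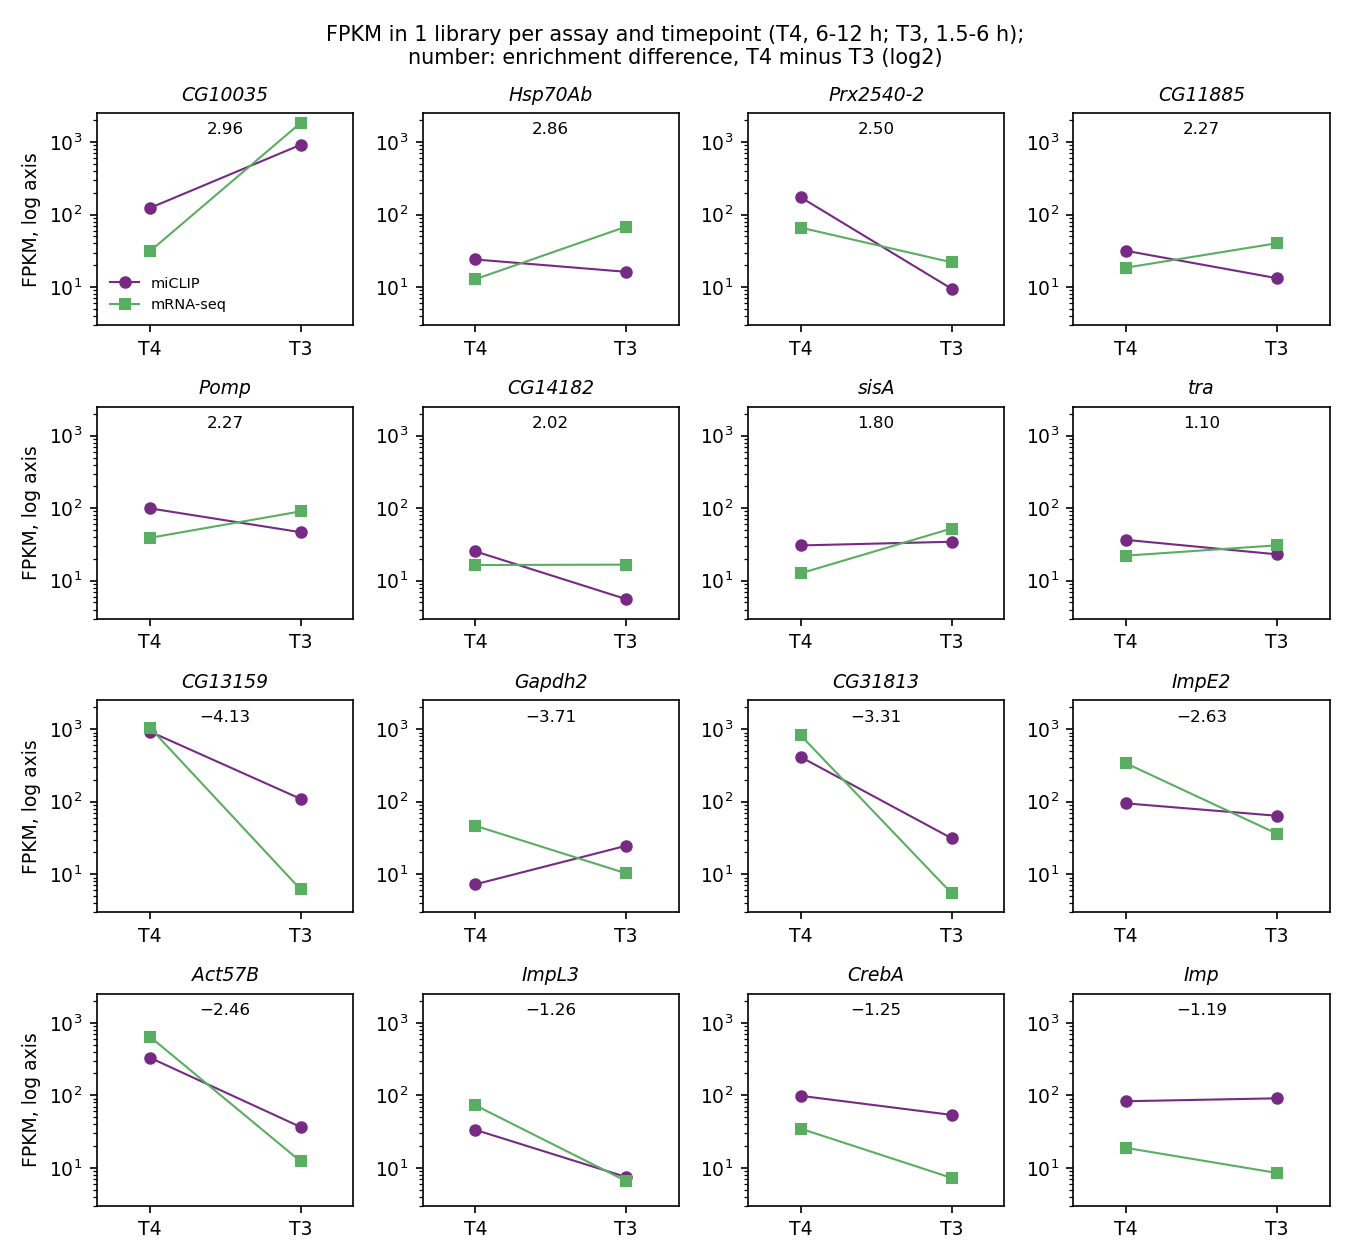
FPKM (log axis) of 16 genes in the 4 libraries, with T4 left of T3, miCLIP as circles and mRNA-seq as squares, 1 library each. The number in each panel is the enrichment difference, and where the lines cross, as in *Hsp70Ab*, *Pomp* and *Gapdh2*, the assay with the higher value at T4 had the lower value at T3.

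Of the genes with steady mRNA-seq, *CG8147*, *ana2*, *Ulp1*, *CG8067*, *CG42709* and *CG11601* had the most negative differences, from -1.35 to -1.22. *Ulp1*, a protease of the small modifier SUMO, had 19.6 FPKM in T4 miCLIP and 22.8 in T4 mRNA-seq, against 48.4 in T3 miCLIP and 21.9 in T3 mRNA-seq. *ana2*, a gene of centriole duplication, had 5.30 and 6.18 FPKM at T4, against 15.4 and 6.50 at T3. These are the counterpart of *CG14182* and *Mis12*, with the higher miCLIP value at T3. *CG11601* shares 34.3% of its exon bases with *smo* on the other strand in the BDGP6.54 annotation, so its value is uncertain. *smo* was itself lower at T4 in miCLIP by 1.25 on the log2 scale.

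Only 5 of the 5378 genes were more than 2-fold higher in 1 assay and more than 2-fold lower in the other. *Gapdh2*, a glycolytic enzyme gene, had 7.25 FPKM in T4 miCLIP and 46.6 in T4 mRNA-seq, against 24.7 in T3 miCLIP and 10.3 in T3 mRNA-seq. Its R was -2.53 at T4 and 1.19 at T3, a difference of -3.71. *CG8407* and *CG6180* moved the same way, with differences of -2.77 and -2.34. *Pomp*, which encodes a proteasome maturation factor, had 99.5 FPKM in T4 miCLIP and 39.0 in T4 mRNA-seq, against 46.6 in T3 miCLIP and 90.3 in T3 mRNA-seq, a difference of 2.27. *CG11885* also had a difference of 2.27. *Pomp* shares 40.02% of its exon bases with *vari* on the other strand in BDGP6.54, and *vari* had 77.4 FPKM in T4 miCLIP and 98.5 in T4 mRNA-seq, against 13.8 in T3 miCLIP and 9.35 in T3 mRNA-seq, and its part in the value of *Pomp* was not tested. Of the 40 genes named for their extreme or steady values, 12 overlap an exon of another gene in that annotation, none of them over more than 50% of their exon bases. Among the genes given below for which the overlap was computed, the largest shares were 16.8% for *His3.3A*, 16.6% for *nito*, 14.4% for *Imp*, 9.70% for *aurA*, 8.58% for *tra* and 6.11% for *CG7818*. *Sry-alpha*, labelled in the plot of assay differences, shares 100% with *Sry-beta* on the same strand.

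Counting error alone is smaller than these differences. The exact 95% interval of the ratio of the 4 read numbers, taken without the pseudocount, ran from 2.86 to 3.13 for *CG10035* and from -4.33 to -3.58 for *Gapdh2*. It ran from 0.95 to 3.39 for *snoRNA:Psi28S-1192a*, a guide RNA for pseudouridylation of ribosomal RNA that had 35 reads in T4 miCLIP and 15 in T3 miCLIP. For all 215 and all 128 genes the interval lay on 1 side of 0, and for 105 and 75 of them it lay wholly beyond 2-fold. These genes were chosen on values of the same 4 libraries, so an interval clear of 0 is no separate support for them. Such intervals hold no error of collection, precipitation or library preparation. Genes with low values were more often beyond 2-fold, with 13.7% of the 1076 members with the lowest FPKM and 1.86% of the 1076 with the highest.

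Genes of cell division stood above the median of all members. The 43 mitotic cell cycle genes, all of them members, had a median difference of 0.46, and 35 lay above the median of all members. *aurA* and *pav*, which encode a mitotic kinase and a kinesin of cytokinesis, were the 2 beyond 2-fold, and none was beyond 2-fold in the other direction. *aurA* had 29.4 FPKM in T4 miCLIP and 19.5 in T4 mRNA-seq, against 32.4 in T3 miCLIP and 47.3 in T3 mRNA-seq, a difference of 1.10. *pav* had 47.7 and 37.96 FPKM at T4, against 50.3 and 82.0 at T3, a difference of 1.02. *fzy*, an activator of the anaphase-promoting complex, had 96.9 and 77.7 FPKM at T4, against 209 and 278 at T3, a difference of 0.73. Both assays thus gave lower values at T4 in these genes, with medians over the list of -0.74 in miCLIP and -1.29 in mRNA-seq. All 547 members that were 2-fold to 4-fold lower in mRNA-seq at T4 had a median enrichment difference of 0.42, close to that of the list. The exceptions included *stg*, the Cdc25 phosphatase that times embryonic mitoses, which had 310 and 121 FPKM at T4, against 331 and 80.7 at T3, a difference of -0.68.

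Replacement histone genes and cytoplasmic ribosomal protein genes also lay above the median. All 6 genes of the histone list did, with a median of 0.72. Besides replacement histones it holds *BigH1*, the embryonic linker histone, at 0.40, and *Slbp*, which binds histone mRNA, at 0.61. Of the replacement histones, *His3.3A* had 741 FPKM in T4 miCLIP and 607 in T4 mRNA-seq, against 425 in T3 miCLIP and 680 in T3 mRNA-seq, a difference of 0.96. Of 87 ribosomal protein genes 79 lay above it, with a median of 0.36 and a range from -0.25 to 0.97, and 0 were beyond 2-fold. These genes are short, and 62 of the 87 lay above the median of members of similar length, relative to which their median was 0.12 instead of the 0.28 relative to all members. They differed little in mRNA-seq, where their median was 0.10, and more in miCLIP, where it was 0.48. The 72 mitochondrial ribosomal protein genes had a median of 0.16 but a wider spread, from -1.89 for *mRpL40* to 1.14 for *mRpS33*, with 2 genes higher and 3 lower by more than 2-fold.

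The 13 heat shock and chaperone genes had a median of 0.39, and 9 lay above the median of all members. Of these genes, 5 were more than 2-fold higher, namely *Hsp70Ab*, *Hsp70Bb*, *Hsp70Bbb*, *Hsp23* and *Hsp27*. *Hsp23*, a small heat shock protein gene, had 80.3 FPKM in T4 miCLIP and 41.6 in T4 mRNA-seq, against 43.2 in T3 miCLIP and 62.4 in T3 mRNA-seq, a difference of 1.45. *Hsc70-3*, the chaperone of the endoplasmic reticulum, had 286 and 497 FPKM at T4, against 118 and 108 at T3, a difference of -0.93. *Hsc70-5* and *Hsp60*, chaperones of the mitochondrion, had differences of -0.74 and -0.39. *Hsf*, the heat shock transcription factor, was at -0.30.

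The 10 genes of the glycolytic list, which includes the regulator *ERR*, all lay below the median of all members. Their median was -0.53, and 3 were more than 2-fold lower. Besides *Gapdh2* these were *ImpL3*, the lactate dehydrogenase gene, and *Pglym78*, a phosphoglycerate mutase gene. *ImpL3* had 33.4 FPKM in T4 miCLIP and 72.9 in T4 mRNA-seq, against 7.46 in T3 miCLIP and 6.57 in T3 mRNA-seq, a difference of -1.26. *Pglym78* had 14.4 and 39.3 FPKM at T4, against 19.9 and 24.3 at T3, a difference of -1.11. *Gapdh1*, the other glyceraldehyde-3-phosphate dehydrogenase gene, had 15.8 and 19.7 FPKM at T4, against 25.2 and 27.1 at T3, a difference of -0.20. For *Gapdh2* the assays moved apart, whereas for *Gapdh1* they moved together. The 42 oxidative phosphorylation genes had a median of 0.06, close to that of all members, and 0 beyond 2-fold.

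Genes of axons and of septate junctions, the barrier junctions of fly epithelia, lay mostly below the median. Of 25 axon guidance and neuronal adhesion genes 21 lay below it, with a median of -0.28, and *Nrx-IV* and *PlexB* were more than 2-fold lower. Relative to members of similar length their median was -0.16, against -0.36 relative to all members. *Nrx-IV*, a neurexin of septate junctions and glia, had 40.4 FPKM in T4 miCLIP and 77.1 in T4 mRNA-seq, against 17.0 in T3 miCLIP and 13.3 in T3 mRNA-seq, a difference of -1.24. *PlexB*, a semaphorin receptor, had 38.4 and 21.0 FPKM at T4, against 39.4 and 9.86 at T3, a difference of -1.05. Of 21 septate junction genes 17 lay at or below the median, and 1 was beyond 2-fold in each direction, *Nrx-IV* and *CG7713*. The median of the septate junction list was -0.17, and its median mRNA-seq difference was 0.88. All 637 members that were 0.5 to 1 higher in mRNA-seq on the log2 scale also had a median enrichment difference of -0.17. *CG7713* had 211 FPKM in T4 miCLIP and 93.3 in T4 mRNA-seq, against 52.5 in T3 miCLIP and 60.1 in T3 mRNA-seq, a difference of 1.36. In the same list *cora*, a junction scaffold gene, had 82.1 and 129 FPKM at T4, against 6.8 and 5.40 at T3, a difference of -0.93. Only 4 of 24 muscle contractile genes and 4 of 27 chitin and cuticle genes passed the limit of 5 FPKM, and their medians of -0.63 and -0.83 rest on these few genes. A gene passes only if it was already measured at T3, so these numbers describe the early members of each list. Of the 14 myogenic genes 12 lay below the median, but set against genes of their own length, as described further on, their median was 0.050 and on the positive side.

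The 16 FGF and tracheal genes had a median of -0.22 and the 19 Polycomb group genes one of -0.17, with 0 beyond 2-fold in both lists. Both lists hold long genes. Relative to members of similar length their medians were -0.17 and -0.10, against -0.30 and -0.25 relative to all members. By that measure 7 of the 16 and 8 of the 19 lay above the median. *ths*, a ligand of the FGF receptor *htl*, had 15.7 FPKM in T4 miCLIP and 6.87 in T4 mRNA-seq, against 28.8 in T3 miCLIP and 6.14 in T3 mRNA-seq, a difference of -0.98. *htl* itself had 27.8 and 14.1 FPKM at T4, against 15.6 and 15.2 at T3, a difference of 0.90. Ligand and receptor thus differed in opposite directions in miCLIP while both were nearly level in mRNA-seq.

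Genes of the other signalling pathways were spread around the median. The 31 Wingless and Hedgehog genes had a median of 0.18, the 18 Notch genes 0.16, and the 26 Dpp and EGF receptor genes 0.12. *Wnt2*, a Wnt ligand gene, was the 1 gene of its list beyond 2-fold, with 19.7 FPKM in T4 miCLIP and 10.9 in T4 mRNA-seq, against 6.94 in T3 miCLIP and 11.4 in T3 mRNA-seq, a difference of 1.43. *wg* itself had 41.6 and 21.0 FPKM at T4, against 75.4 and 24.5 at T3, a difference of -0.62. *tld*, a protease that releases Dpp from its inhibitor, had 11.3 and 7.17 FPKM at T4, against 12.6 and 21.7 at T3, a difference of 1.34.

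Transcription factor genes, a class that the study itself picked out from these libraries for high miCLIP, stayed high at both timepoints. The 82 members of this list had a median R of 0.80 at T4 and 0.71 at T3, against -0.04 and -0.14 for all members, and a median difference of -0.05. *sens*, a zinc finger gene of sensory organ precursors, had 28.3 FPKM in T4 miCLIP and 13.3 in T4 mRNA-seq, against 6.53 in T3 miCLIP and 7.03 in T3 mRNA-seq, a difference of 1.13. *CrebA*, which drives secretory genes in salivary glands and epidermis, had 98.3 and 34.6 FPKM at T4, against 53.6 and 7.25 at T3, a difference of -1.25. These were the 2 genes of the list beyond 2-fold. *Ubx*, a Hox gene, had 108 and 16.7 FPKM at T4, against 47.0 and 8.58 at T3, so that R was high at both timepoints, 2.62 and 2.32, and the difference was 0.30.

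The genes that set and read the mark were all members. Writer complex genes were *Ime4* at -0.14, *fl(2)d* at -0.04, *nito* at 0.31, *vir* at 0.32, *Hakai* at 0.45 and *CG7818* at 0.62. The YTH reader genes were *CG6422* at 0.15 and *YT521-B* at 0.62. *CG7358*, another member of the writer complex, was at 0.67. *Ime4*, the catalytic subunit, had 9.94 FPKM in T4 miCLIP and 14.7 in T4 mRNA-seq, against 25.8 in T3 miCLIP and 33.8 in T3 mRNA-seq. Its partner *CG7818* had 19.3 and 26.4 FPKM at T4, against 36.0 and 76.1 at T3. *YT521-B*, the nuclear reader, had 129 and 56.6 FPKM at T4, against 104 and 70.5 at T3. All 9 genes were lower in mRNA-seq at T4, by 0.18 to 1.49 on the log2 scale, and none was beyond 2-fold in the enrichment difference.

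Among sex determination genes the enrichment of the master gene stayed level and 2 others were beyond 2-fold. *Sxl* had 73.3 FPKM in T4 miCLIP and 35.9 in T4 mRNA-seq, against 94.5 in T3 miCLIP and 45.5 in T3 mRNA-seq. Its R was 1.01 at T4 and 1.04 at T3, a difference of -0.03, with a counting interval from -0.08 to 0.04. R is a ratio of reads per gene, so it does not count m6A sites or set introns apart. The study called m6A sites in introns of *Sxl* at T3 and reports that these calls were far fewer at T4. *sisA*, an X-linked activator of *Sxl*, had 30.6 and 12.6 FPKM at T4, against 34.4 and 52.4 at T3, a difference of 1.8. *tra*, the target that *Sxl* protein splices, had 36.5 and 22.1 FPKM at T4, against 23.1 and 30.7 at T3, a difference of 1.10. For *sisA* the assays differed mainly in mRNA-seq, and for *tra* in both. The 16 members of this list had a median of 0.03.

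*Imp*, *ps* and *Not1*, which come from 3 different lists, were each more than 2-fold lower. *Imp*, which binds mRNAs in neurons and the germ line, had 82.8 FPKM in T4 miCLIP and 18.8 in T4 mRNA-seq, against 90.8 in T3 miCLIP and 8.48 in T3 mRNA-seq, a difference of -1.19. *ps*, a splicing regulator related to mammalian Nova proteins, had 42.1 and 30.4 FPKM at T4, against 23.0 and 6.89 at T3, a difference of -1.15. *Not1*, the scaffold of the CCR4-NOT deadenylase, had 28.9 and 28.6 FPKM at T4, against 47.5 and 21.5 at T3, a difference of -1.09. All 3 were above their mRNA-seq value in miCLIP at T3 and nearer to it at T4. Over the 27 splicing regulators the median was 0.20, with *tra* and *ps* the 2 genes beyond 2-fold.

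**Figure D3:**
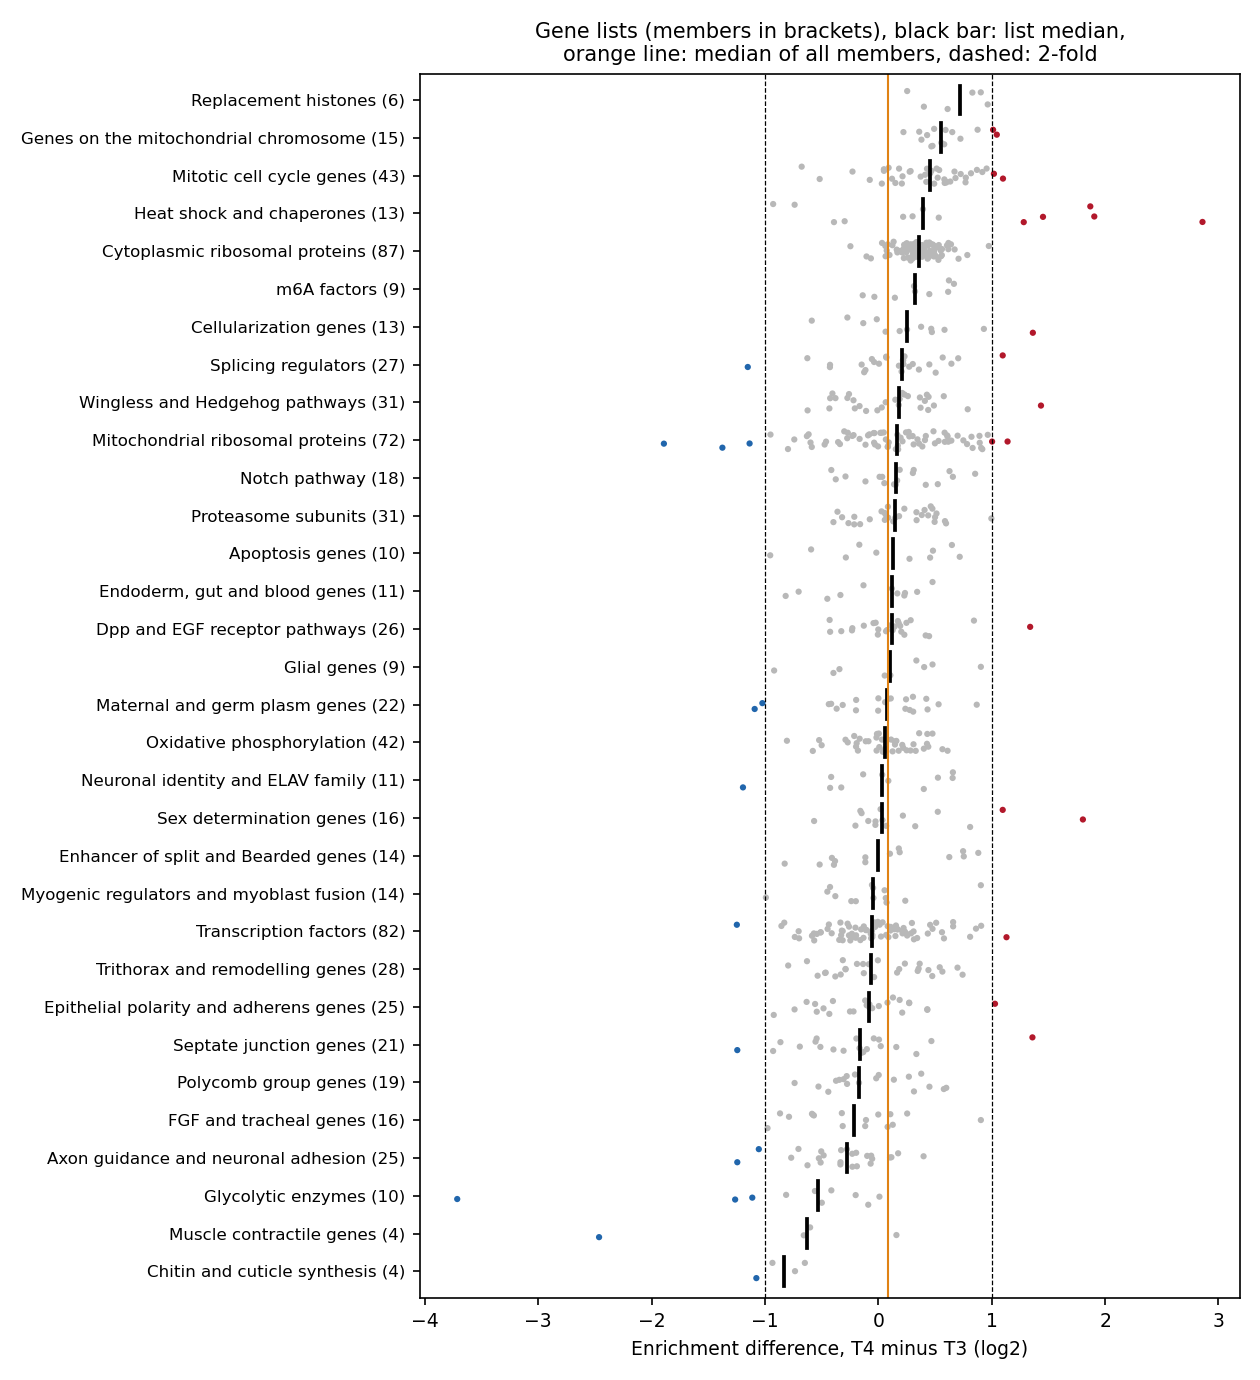
Enrichment difference (log2, T4 minus T3) of the members of each gene list with at least 4 members, 1 point per gene, with the list median as a black bar and the median of all members, 0.08, as an orange line. Mitotic cell cycle genes, replacement histones and cytoplasmic ribosomal proteins lie mostly right of the orange line, and glycolytic enzymes and axon guidance genes mostly left of it.

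Differences in the 2 assays went together across genes. The miCLIP difference and the mRNA-seq difference, which come from separate libraries of the same RNA, had a Spearman rho of 0.75 across the 5378 genes. In the 102 genes more than 4-fold higher in mRNA-seq at T4 the median difference was 2.21 in miCLIP and 2.48 in mRNA-seq. In the 55 genes more than 4-fold lower it was -1.71 in miCLIP and -2.23 in mRNA-seq. Of these groups 26.5% were beyond 2-fold on the negative side and 29.1% on the positive side of the enrichment difference, which holds the same mRNA-seq values and so leans that way by construction. The gap depended on which assay sorted the genes. In the 91 genes more than 4-fold higher in miCLIP the medians were 2.43 in miCLIP and 2.42 in mRNA-seq, and in the 31 genes more than 4-fold lower they were -2.36 and -2.25.

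**Figure D4:**
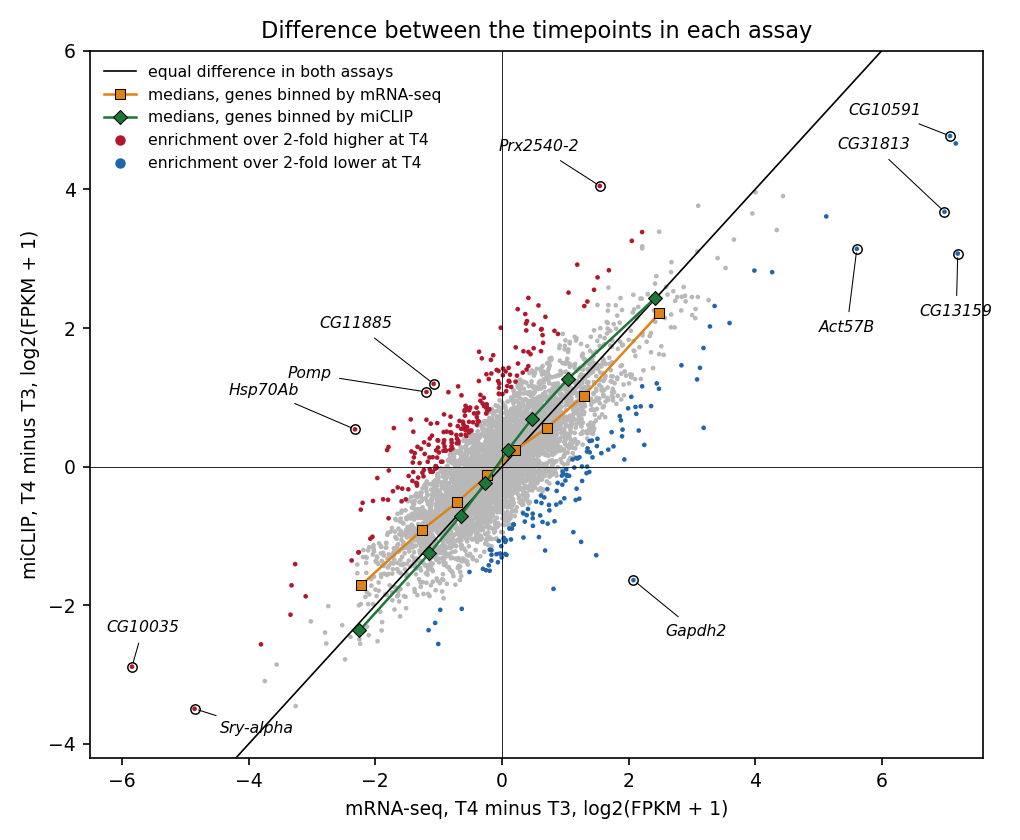
Difference between T4 and T3 in miCLIP (vertical axis) against that in mRNA-seq (horizontal axis), both as log2(FPKM + 1), 1 point per gene, with the black line where both are equal. The medians of genes binned by mRNA-seq (orange squares) run flatter than this line, from -1.71 to 2.21 on the vertical axis, and those of genes binned by miCLIP (green diamonds) stay near it.

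A like order was seen when the genes were sorted by libraries that the enrichment difference does not use. In the 31 genes more than 16-fold lower in mRNA-seq at T5 (12 to 18 h) than at T2 (45 to 90 min), the median enrichment difference between T4 and T3 was 0.70. In the 109 genes more than 16-fold higher it was -0.33, and the 6 bins in between ran from 0.41 to -0.09 with 1 step out of order, 0.03 before 0.06. The difference was thus highest in genes whose RNA was lower at T5 than at T2. This sorting is not separate from the mRNA-seq difference between T4 and T3, whose bin medians ran from -1.79 in the 31 genes to 1.64 in the 109. Of the 109 genes, 7.34% were more than 2-fold higher and 13.8% more than 2-fold lower, against 4.0% and 2.38% of all members.

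Enrichment also differed by gene length, which the steps of the FPKM values give up to a common factor. The shortest sixth of the members had a median enrichment difference of 0.26 and the longest sixth one of -0.18, with each sixth in between lower than the one before. Median R in the shortest sixth was -0.23 at T4 and -0.47 at T3, and in the longest 0.26 at T4 and 0.45 at T3. Long genes thus had the higher enrichment at both timepoints, and the gap between long and short genes was smaller at T4. Of the 897 genes in the shortest sixth 9.36% were more than 2-fold higher, and of the 897 in the longest 0. Among genes with steady mRNA-seq the medians were 0.24 in the shortest and -0.13 in the longest sixth. The ribosomal protein and replacement histone genes are short, with median lengths of 0.39 and 0.50 of that of the median member, and the axon guidance genes are long, at 2.50. Set against genes of their own sixth, the lists had medians of 0.12, 0.52 and -0.16.

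**Figure D5:**
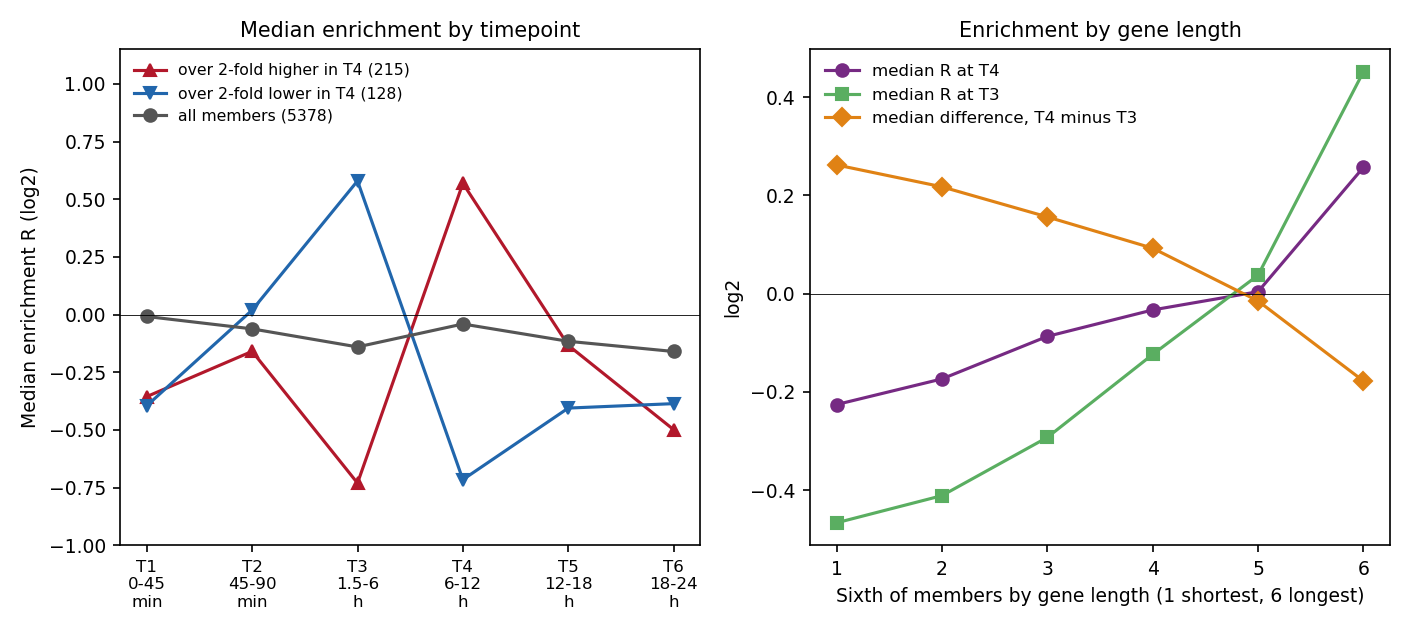
Left, median enrichment R (log2) at the 6 timepoints of the 215 genes more than 2-fold higher at T4, the 128 genes more than 2-fold lower and all 5378 members. The limit of 5 FPKM was set at T3 and T4 only. Right, median R at T4, at T3 and their median difference in sixths of the members by gene length, where the difference runs from 0.26 in the shortest to -0.18 in the longest sixth.

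At the timepoints that were not used to choose them, the medians of both sets lay close to that of all members or below it. The limit of 5 FPKM was not applied there, and the member with the fewest reads had 0 in each miCLIP library of T1, T2, T5 and T6. Medians and shares at these timepoints thus include values near the floor. *CG11885*, for example, had 0 FPKM in T5 miCLIP and an R of -3.65 at T5. The 215 genes had a median R of -0.36 at T1, -0.16 at T2, -0.73 at T3, 0.57 at T4, -0.13 at T5 and -0.50 at T6. The 128 genes had medians of -0.39, 0.02, 0.58, -0.72, -0.41 and -0.39 at the same timepoints. All members had medians of -0.01, -0.06, -0.14, -0.04, -0.12 and -0.16. T3 and T4 set the sets apart by the way they were chosen, and at the other timepoints both medians were negative except for 0.02 at T2. Single genes lay far from these medians. In the lower set, R at T6 was 9.08 for *CG13159*, 7.95 for *CG31813* and 7.02 for *ImpE2*, but -2.58 for *Gapdh2* and -1.25 for *Act57B*. In the higher set it was -7.57 for *Smvt* and 4.10 for *snRNA:U12:73B*. The values of *CG13159* and *Smvt* were the highest and the lowest R of all members at T6. The member with the fewest reads had 0 in T6 miCLIP and 5 in T6 mRNA-seq, so such values can rest on few reads in 1 assay. At T5, R was nearer to its T3 value than to its T4 value for 50.2% of the 215 genes and 35.2% of the 128 genes, against 49.0% of all members. The 4167 genes that could be compared had at least 5 FPKM in the T2 and T5 libraries as well. Across them, the enrichment difference between T4 and T3 and that between T5 and T2, which share no library, had a Spearman rho of 0.01. For comparison, in the neighbouring steps, which share the T3 or the T4 libraries with this one, 7.7% of 4950 genes were more than 2-fold higher and 12.0% lower at T3 than at T2, and 7.39% of 5547 were higher and 7.16% lower at T5 than at T4.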

How the data were processed

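The authors trimmed adaptors with Flexbar, demultiplexed miCLIP reads and removed PCR duplicates with pyCRAC, mapped both assays with Subread-align, counted reads on genes with featureCounts and deposited FPKM values made with the DESeq package as 1 table of 14977 genes. FPKM divides by gene length and by a library factor; lengths, factors and the strand setting are not given in the sources used here. The 12 columns were matched to libraries by name, with 0 left over.

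Enrichment used a pseudocount of 1 FPKM. Reads and relative lengths were recovered from the value steps for 13982 genes (every value within 0.02 of a whole read); 995 had none. Depth ranged from 6772158 to 25486971 reads over the 4 libraries of T3 and T4. It was lower in T2 miCLIP, at 4251686, and in T6 miCLIP, at 6210092. Intervals are exact conditional ones at 95% and cover counting error only. With 1 library per group no test was made, and more than 2-fold is a description. Scripts, checked on simulated data, ran in Python 3.11.15, numpy 2.4.6, pandas 2.3.3, scipy 1.17.1 and matplotlib 3.10.9. RefSeq symbols matched 5337 members. No coordinates are given, since the reference is of a later release.

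Genes named are the 15 with the largest and the 15 with the smallest difference, the 6 in each direction whose mRNA-seq moved by less than 0.25, up to 3 per list with the largest absolute difference, *Sxl*, *Ubx* and the m6A factors. Others, such as *fzy*, *stg*, *Hsp23*, *Hsp27*, *Hsc70-3*, *Hsc70-5*, *Hsp60*, *Gapdh1*, *Prx2540-1*, *vari*, *smo*, *BigH1*, *Slbp*, *Hsf*, *ERR* and the RNAs of the closing section, were chosen after their values were seen. The members and lists were chosen with earlier results of these data known. Alternatives were other pseudocounts, filters and scalings, a minimum of 20 reads and, added after seeing the data, centring within length sixths.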

Additional observations from a re-analysis of the deposited data

Results flagged for a closer look

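The 5 genes that were more than 2-fold apart between T4 and T3 in both assays but in opposite directions are given here because miCLIP and mRNA-seq disagreed in direction, and the disagreement itself was not tested. In miCLIP, T4 minus T3, *CG11885* was at 1.19 and *Pomp* at 1.08 on the log2 scale, and in mRNA-seq at -1.08 and -1.19. *CG6180* was at -1.08, *CG8407* at -1.28 and *Gapdh2* at -1.64 in miCLIP, and at 1.25, 1.49 and 2.08 in mRNA-seq. *CG6180* and *CG8407* rest on 41 and 38 reads in T4 miCLIP and had exact counting intervals of the enrichment difference, taken without the pseudocount, from -3.19 to -2.05 and from -3.67 to -2.46.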

How the results depend on the processing

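No paired analysis was possible because each assay and timepoint has 1 library, and for the same reason no library could be left out. The 215 higher and 128 lower genes and the median of 0.08 became 395, 397 and 0.046 with a limit of 1 FPKM (6959 genes), 119, 46 and 0.11 with a limit of 10 FPKM (3972 genes), 978, 1363 and -0.029 with no limit (13300 genes), and 138, 279 and -0.11 with libraries scaled to the same sum. Without mitochondrial and non-coding genes in that sum there were 147 higher genes, 230 lower genes and a median of -0.070. Centring on the median over members set it to 0 and gave 169 higher and 168 lower genes. Centring within length sixths, added after seeing the data, gave 126 higher and 180 lower genes and a median of 0. Relative to all members, list medians moved with no limit to 0.14 for Dpp and EGF receptor genes (0.03 before) and 0.39 for cytoplasmic ribosomal proteins (0.28 before). With length centring they moved to 0.0076 for transcription factors, -0.16 for axon guidance, 0.12 for cytoplasmic ribosomal proteins, -0.035 for proteasome subunits and -0.16 for oxidative phosphorylation, and for myogenic regulators the sign changed, to 0.050 from -0.13. Length centring also turned the sign for neuronal identity (0.21 from -0.048), trithorax (0.070 from -0.14), epithelial polarity (0.019 from -0.16), sex determination (0.024 from -0.054) and mitochondrial ribosomal proteins (-0.065 from 0.079), as it did for the transcription factors (-0.14 before) and proteasome subunits (0.067 before). Notch and glial genes moved to 0.32 and 0.28 from 0.078 and 0.024. Signs also turned for 2 lists with a limit of 1 FPKM, among them endoderm, gut and blood genes (-0.38 from 0.038), for 2 with a limit of 10 FPKM, among them Wingless and Hedgehog genes (-0.063 from 0.099), and for 5 with no limit. Of 63 named genes beyond 2-fold, 57 were still so after sum scaling and 56 after length centring, and none changed sign. With a limit of 10 FPKM only 27 of the 63 had a value, and these 27 were still beyond 2-fold. The others had a value below 10 FPKM in at least 1 of the 4 libraries. Why the counts move was not tested, other than that a lower limit tests more genes with few reads.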

Other observations

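Small RNAs were more often beyond 2-fold than the members as a whole, on few genes and few reads. Of 19 small nucleolar RNAs among the members, 4 were more than 2-fold higher and 2 more than 2-fold lower, from *snoRNA:Psi28S-1192a* at 2.02 to *snoRNA:Me18S-A1576* at -2.58, and of 3 small nuclear RNAs 2 were higher. Of 15 antisense RNAs none was beyond 2-fold, with a range from -0.55 to 0.74, and of 15 long non-coding RNAs 1 was lower. *snRNA:U12:73B*, of the minor spliceosome, had 23.7 FPKM in T4 miCLIP and 7.23 in T4 mRNA-seq, against 14.4 in T3 miCLIP and 21.3 in T3 mRNA-seq, a difference of 2.12. *7SLRNA:CR32864*, the RNA of the signal recognition particle, had 870 and 19.9 FPKM at T4, against 928 and 7.29 at T3, a difference of -1.43. Small RNAs of these kinds lack the long poly(A) tails on which the libraries were selected, most snoRNA genes of flies lie in introns of host genes, and the values rest on few reads, such as 70 for *7SLRNA:CR32864* in T3 mRNA-seq. *roX1*, a dosage compensation RNA, had 377 and 109 FPKM at T4, against 412 and 113 at T3, a difference of -0.09.

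The 15 members on the mitochondrial chromosome, a group formed after the values were seen, had a median R of 5.16 at T4 and 4.44 at T3 and a median difference of 0.55, and all 15 lay above the median of all members. *ATP6* had 2475 FPKM in T4 miCLIP and 58.1 in T4 mRNA-seq, against 2468 in T3 miCLIP and 121 in T3 mRNA-seq, a difference of 1.04. The highest list median of R among the other lists was 0.91 at T4 and 1.18 at T3, both of the FGF and tracheal genes.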
